A study of Rattus norvegicus with 12 samples.

Results

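Bone morphogenetic proteins (BMPs), transforming growth factors beta (TGF-beta), activins and growth and differentiation factors form one superfamily of secreted ligands, described here with their receptors, antagonists and Smad proteins in rat bone. Members were chosen by gene symbol: Bmp, Gdf and Smad followed by a digit, Bmpr, Tgfb, Inha, Inhb, Acvr, Ltbp and Smurf, together with Bambi, Nog, Chrd, Grem1, Fst and Fstl1. This gave 55 genes of 14217 on the array, measured by 87 of 31042 probe sets. A total of 32 members had 1 probe set, and 23 had several, whose mean was used.

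The ligands bind pairs of type I and type II receptor kinases, which phosphorylate receptor Smads. BMP receptors act mainly through Smad1, Smad5 and Smad9, TGF-beta and activin receptors mainly through Smad2 and Smad3, and both kinds of receptor Smad enter the nucleus with Smad4. Secreted antagonists, latent TGF-beta binding proteins, inhibitory Smads and Smurf ubiquitin ligases set how much signal passes, and in bone BMPs drive the formation of cartilage and osteoblasts, while TGF-beta is stored in the matrix.

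RNA of female Sprague-Dawley rats was measured on 12 Affymetrix rat genome arrays, 3 for each of 4 groups, each array holding a pool of 2 to 3 rats from a group of at least 8. The labels name the femur as the source, whereas the methods describe RNA of the tibia. Sham rats and OVX rats (ovariectomized on postnatal day 60) were fed a casein-based control diet, LTBB OVX rats were ovariectomized and ate the diet with 10% blueberry (BB) from day 20 to 81, and STBB OVX rats were ovariectomized and had eaten it from day 20 to 34 only. All rats were killed on day 81.

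The deposited values are log2 expression centred on each probe set's median over the arrays, so they show differences between groups and not how abundant one gene is relative to another. They are referred to below as centred log2 values. The sham arrays stood apart: the SD over all probe sets was 0.781 to 0.824 on each of them and 0.136 to 0.194 on the 9 arrays of ovariectomized rats. Each median is taken over 12 arrays, 9 of them of ovariectomized rats, so a difference from sham widens the sham arrays' spread. Marker genes checked the tissue and moved with the operation. Between OVX and sham, 7 of 7 osteoblast, 5 of 5 osteoclast and 7 of 8 chondrocyte markers were higher, and 8 of 8 skeletal muscle, 5 of 5 erythroid and 4 of 4 neutrophil markers were lower. Of the endothelial markers 6 of 7 were higher and 1 was lower, and of the adipocyte markers 2 of 8 were higher and 3 lower. The mean over the muscle markers lay between 3.40 and 4.30 in sham and between -3.37 and -1.38 in OVX pools. With the long BB diet it lay between -3.41 and 0.57, and with the short one between -0.10 and 0.54. The mean over the osteoblast markers lay between -2.71 and -2.52 in sham and between 0.0026 and 0.047 in OVX pools. For the other lists the means in sham and OVX were -4.79 and 0.083 for chondrocyte and -2.90 and 0.056 for osteoclast markers. They were 2.54 and -0.051 for erythroid and 2.84 and -0.23 for neutrophil markers. Endothelial markers had -0.77 and 0.031, and adipocyte markers 0.014 and -0.00022. In whole bone, fewer cells of a type and less RNA per cell cannot be told apart, and the part of these cell types in the results was not tested.

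The first question was how these genes differed after ovariectomy on the control diet. Most were higher in OVX than in sham bone. By the limma fit over all genes, with a Benjamini-Hochberg adjusted p under 0.05, 36 of 55 members (65.5%) were higher and 5 (9.09%) were lower, against 30.3% and 28.6% of all genes. The median difference was 0.46 for the members and 0.0047 for all genes, and the median absolute difference 0.56 and 0.31. A log2 difference above 1 in size, a change of more than 2-fold, was seen in 19 members (34.5%) and in 16.6% of all genes. The 3 OVX pools lay wholly above the 3 sham pools in 37 members and wholly below in 4, against 31.5% and 29.7% of all genes. An exact permutation test of 3 against 3 pools cannot give a two-sided p under 0.10, so the adjusted p from limma is given. It sets a difference against the variance between pools, shared over the 4 groups and moderated over all genes. The variation between single rats does not enter it, since each array holds a pool. Precision is limited by the number of arrays: the median SD between pools of a member was 0.12 in sham and 0.080 in OVX bone.

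**Figure D1:**
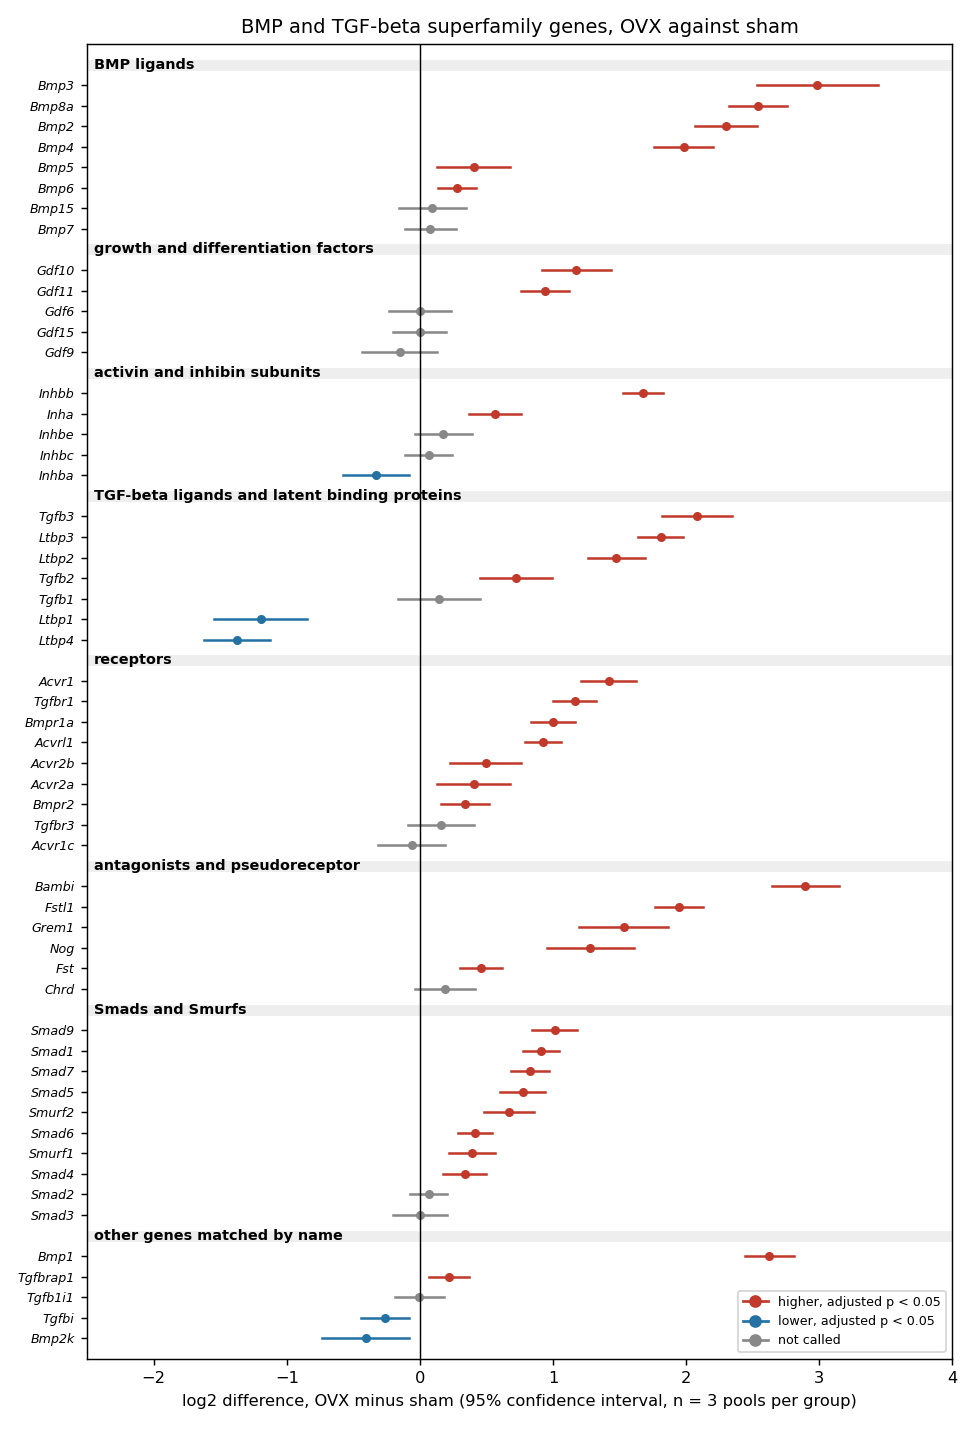
Log2 difference between OVX and sham bone (horizontal axis) for each of the 55 members, grouped by role, with its 95% confidence interval from limma and n = 3 pools per group. Red marks the 36 genes called higher, blue the 5 called lower and grey the 14 not called. The differences run from -1.37 for Ltbp4 to 2.98 for Bmp3.

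Among the BMP ligands, 6 of 8 (75%) were higher and none was lower, against 30.3% and 28.6% of all genes. The median difference was 1.19. Bmp3, an abundant BMP of bone that counteracts the osteogenic members, had centred log2 values of -2.73, -2.998 and -3.46 in sham and 0.10, -0.33 and -0.0095 in OVX pools. The difference was 2.98 (SE 0.21, adjusted p = 5.46e-08), a 7.92-fold rise that ranked 59th from the top of the 14217 genes. After quantile normalization of the arrays it was 1.06, 2.08-fold, and not called (adjusted p = 0.138). That setting narrows the spread of the sham arrays, so smaller differences from sham are partly built into it for every gene. Every OVX pool was above every sham pool. Bmp8a, a ligand of the osteogenic branch, had -2.61, -2.46 and -2.39 in sham and 0.18, -0.042 and 0.011 in OVX pools, and it rose by 2.54 (SE 0.10, adjusted p = 3.44e-10). Bmp2, a strong inducer of bone, had -2.04, -2.10 and -2.49 in sham against 0.011, 0.19 and 0.070 in OVX pools. Its difference was 2.30 (SE 0.11, adjusted p = 1.39e-09), 4.93-fold, again with no overlap. Bmp4, the closest relative of Bmp2, had -1.71, -2.07 and -1.999 in sham and 0.088, 0.10 and -0.018 in OVX pools, with a difference of 1.98 (SE 0.10, adjusted p = 3.29e-09). These 4 ligands were separated from the rest of the group by size, since Bmp5 and Bmp6 rose by only 0.40 (SE 0.13) and 0.28 (SE 0.065). Of the 4 probe sets of Bmp6, at 0.028 to 0.58, only 2 passed, and with 1 probe set per gene its difference was 0.028 and no longer called. Bmp7, also used as a bone inducer, gave 0.077 (SE 0.088, adjusted p = 0.483), with a 95% interval of -0.11 to 0.27. Bmp15, a growth factor of the oocyte, gave 0.094 (SE 0.11, adjusted p = 0.514). Neither passed the test, and for both the pools overlapped.

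Of the growth and differentiation factors 2 of 5 (40%) were higher and none was lower, against 30.3% and 28.6% of all genes. Gdf10, a relative of Bmp3, had -1.06, -1.29 and -1.19 in sham and 0.20, -0.032 and -0.18 in OVX pools and rose by 1.18 (SE 0.12, adjusted p = 1.82e-06). Gdf11, which patterns the axial skeleton and signals through activin receptors, had -0.96, -0.80 and -0.93 in sham and 0.055, 0.087 and -0.025 in OVX pools and rose by 0.94 (SE 0.083, adjusted p = 4.87e-07). Both stood clear of the sham pools. The 2 probe sets of Gdf11 differed, at 1.66 and 0.21, and only the first passed. The 3 others did not pass the test: the joint-patterning ligand Gdf6 had 0.0025 (SE 0.11), the stress-induced Gdf15 -0.0022 (SE 0.093) and the oocyte factor Gdf9 -0.15 (SE 0.13). The median of the 5 was 0.0025.

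Of the activin and inhibin subunits 2 of 5 (40%) were higher and 1 (20%) was lower. These shares were near the 30.3% and 28.6% of all genes, and the list is short. Inhbb, the beta B subunit of activin B, had -1.50, -1.63 and -1.58 in sham and 0.15, 0.062 and 0.11 in OVX pools and rose by 1.68 (SE 0.070, adjusted p = 5.22e-10), 3.2-fold. Inha, the alpha subunit that turns a beta subunit into inhibin, rose by 0.56 (SE 0.089, adjusted p = 0.000107), with -0.76, -0.54 and -0.45 in sham and -0.12, 0.015 and 0.047 in OVX pools. Inhba, the beta A subunit of activin A, was one of the few members to fall: its values were 0.29, 0.22 and 0.25 in sham and 0.053, -0.034 and -0.25 in OVX pools, a change of -0.33 (SE 0.11, adjusted p = 0.0256). The sham pools of Inhba were close together and above all OVX pools, but its 2 probe sets differed, at -0.63 and -0.025, and only the first passed. With 1 probe set per gene the difference of Inhba was -0.025 and not called. The call ended without sham replicate 1 or OVX replicate 3. The liver-expressed subunits Inhbe (0.18, SE 0.10) and Inhbc (0.065, SE 0.081) did not pass the test.

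**Figure D2:**
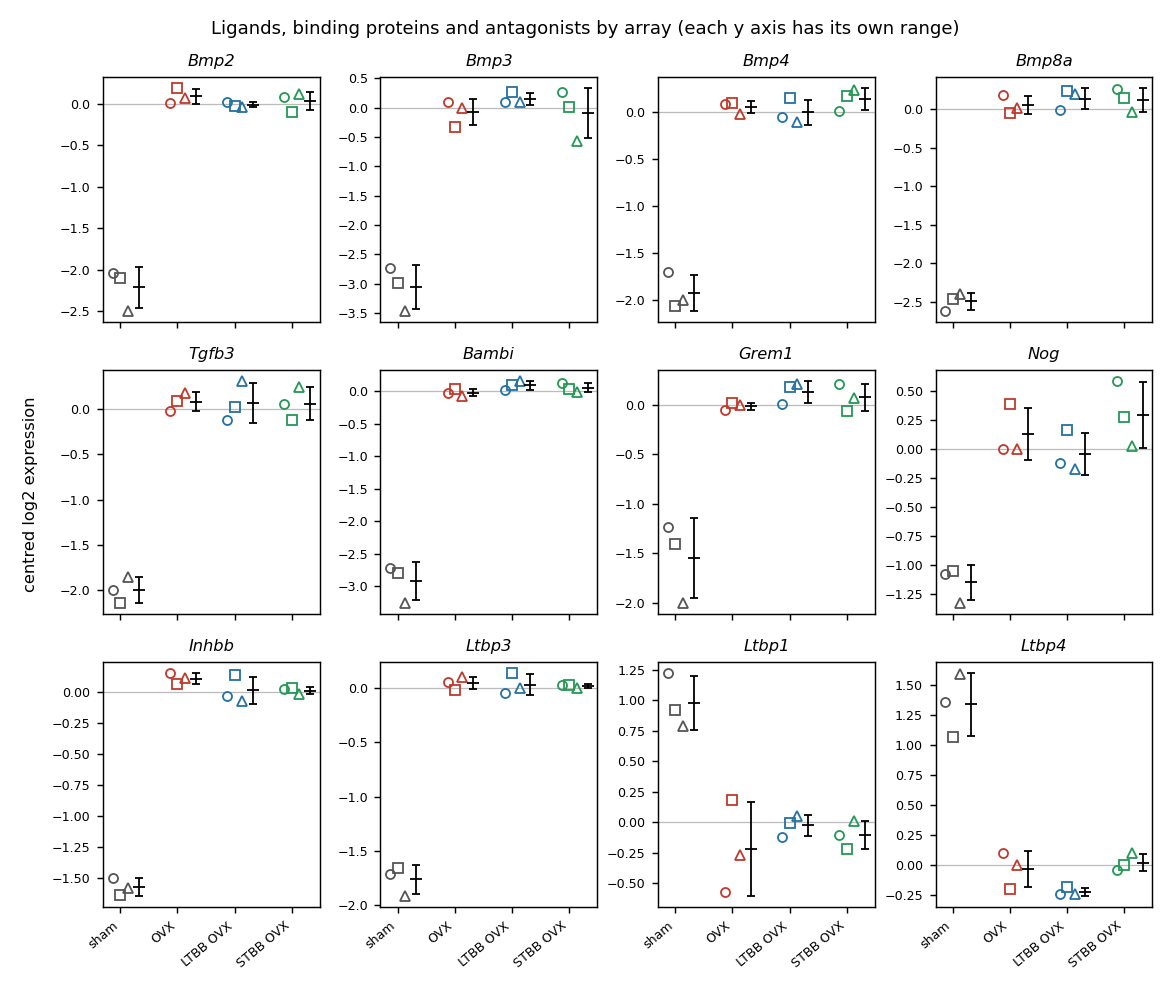
Centred log2 expression (vertical axes, each with its own range) of 12 members in every pool of the 4 groups. Circles, squares and triangles are pools 1, 2 and 3, and the black bars show the mean and SD of the 3 pools. Sham pools lie below all other pools for Bmp2, Bmp3, Bmp4, Bmp8a, Tgfb3, Bambi, Grem1, Nog, Inhbb and Ltbp3, and above them for Ltbp1 and Ltbp4.

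The TGF-beta ligands and the latent binding proteins that hold them in the matrix had 4 higher, 2 lower and 1 not called. Of these 7 genes 57.1% were thus higher and 28.6% lower, against 30.3% and 28.6% of all genes. Tgfb3 had -1.99, -2.14 and -1.86 in sham and -0.023, 0.087 and 0.18 in OVX pools, a rise of 2.08 (SE 0.12, adjusted p = 1.07e-08), 4.23-fold. Tgfb2 had -0.86, -0.88 and -0.45 in sham and -0.0059, 0.048 and -0.061 in OVX pools and rose by 0.72 (SE 0.13, adjusted p = 0.000248). Tgfb1, the isoform most abundant in bone matrix, had -0.057, 0.037 and -0.57 in sham and -0.021, 0.0059 and -0.14 in OVX pools. Its difference of 0.14 (SE 0.14, adjusted p = 0.41) did not pass the test, the pools overlapped, and sham replicate 3 was the low one. The 3 ligands thus had differences of 2.08, 0.72 and 0.14.

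Of the latent binding proteins, Ltbp3, which is needed for normal TGF-beta activity in the skeleton, had -1.71, -1.66 and -1.91 in sham and 0.055, -0.014 and 0.10 in OVX pools and rose by 1.81 (SE 0.077, adjusted p = 6.62e-10). Ltbp2, which does not bind latent TGF-beta, rose by 1.47 (SE 0.10, adjusted p = 3.55e-08), with -1.36, -1.46 and -1.32 in sham and 0.049, 0.10 and 0.14 in OVX pools. Ltbp4, which binds latent TGF-beta and elastic fibres, ran the other way, with 1.36, 1.07 and 1.59 in sham and 0.10, -0.20 and 0.0023 in OVX pools. Its difference was -1.37 (SE 0.11, adjusted p = 2.93e-07), a 2.59-fold fall. Ltbp1, the main carrier of latent TGF-beta in many tissues, had 1.22, 0.92 and 0.79 in sham and -0.58, 0.18 and -0.27 in OVX pools and changed by -1.20 (SE 0.16, adjusted p = 2.69e-05), 2.29-fold lower. All sham pools of both genes lay above all other pools, and the OVX pools of Ltbp1 had the largest SD of any member in that group, 0.38. These were the only members that fell by more than 1 on the log2 scale.

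Among the receptors 7 of 9 (77.8%) were higher and none was lower, against 30.3% and 28.6% of all genes. The median difference was 0.49. The type I receptor Acvr1, which binds BMPs, had -1.51, -1.48 and -1.29 in sham and 0.021, 0.058 and -0.10 in OVX pools, a rise of 1.42 (SE 0.10, adjusted p = 3.75e-08). Tgfbr1, the TGF-beta type I receptor, had -1.12, -1.20 and -1.06 in sham and 0.13, 0.081 and -0.10 in OVX pools and rose by 1.16 (SE 0.075, adjusted p = 2.58e-08). Bmpr1a, a type I receptor for Bmp2 and Bmp4, had -1.05, -0.88 and -0.93 in sham and 0.12, 0.059 and -0.051 in OVX pools and rose by 0.998 (SE 0.077, adjusted p = 1.34e-07). Acvrl1, a type I receptor best known from endothelium, rose by 0.93 (SE 0.062, adjusted p = 3.44e-08), with -0.84, -0.96 and -0.93 in sham and -0.014, -0.031 and 0.10 in OVX pools. In each of the 4 the groups were apart by several times the spread between pools. Differences were smaller for the type II receptors, where Acvr2b gave 0.49 (SE 0.12), Acvr2a 0.41 (SE 0.13) and Bmpr2 0.34 (SE 0.084), all called higher. The 2 probe sets of Bmpr2 differed, at 0.91 and -0.24, of which the first passed, and after quantile normalization of the arrays the difference was -0.031 and no longer called. The co-receptor Tgfbr3 (0.16, SE 0.11) and the type I receptor Acvr1c (-0.062, SE 0.12) did not pass the test.

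Antagonists had the highest median of any role, 1.41. Of these, 5 of 6 (83.3%) were higher and none was lower, against 30.3% and 28.6% of all genes. Bambi, a pseudoreceptor without a kinase domain that blocks TGF-beta and BMP receptors, had -2.72, -2.80 and -3.26 in sham and -0.027, 0.028 and -0.082 in OVX pools. It rose by 2.90 (SE 0.12, adjusted p = 3.69e-10), 7.45-fold, the 64th largest rise of all genes, and by 1.12, 2.17-fold, after quantile normalization, where it was still called. Fstl1, a secreted glycoprotein related to follistatin, had -1.99, -1.94 and -1.79 in sham and 0.077, -0.0096 and 0.047 in OVX pools and rose by 1.95 (SE 0.084, adjusted p = 7.41e-10), alike in its 3 probe sets. Grem1, which binds Bmp2 and Bmp4, had -1.23, -1.41 and -2.002 in sham and -0.058, 0.014 and -0.0045 in OVX pools, a rise of 1.53 (SE 0.15, adjusted p = 1.67e-06). Its sham pools had the largest SD of any member in that group, 0.40, and still lay below all OVX pools. Nog, which encodes the BMP antagonist noggin, had -1.07, -1.05 and -1.33 in sham and 0.00094, 0.39 and -0.00094 in OVX pools and rose by 1.28 (SE 0.15, adjusted p = 7.95e-06). Fst, which encodes follistatin and traps activin, had -0.18, -0.26 and -0.36 in sham and 0.13, 0.26 and 0.19 in OVX pools and rose by 0.46 (SE 0.072, adjusted p = 0.000102). Chrd, which encodes chordin, gave 0.19 (SE 0.10, adjusted p = 0.134) and was not called, although its OVX pools were all above its sham pools. BMP ligands (6 of 8) and antagonists (5 of 6) were thus mostly higher in the same comparison.

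Promoters of 46 of the 55 members were found in RefSeq (assembly GRCr8), 49 in all, and the 250 bases before each start were read. Members had GC-rich promoters, with a median GC content of 66.4%, against 58.8% for genes on the array and 51.2% for all promoters. The letters GGCGCC, which read the same on both strands, were in 30.6% of member promoters, in 15.1% of those of genes on the array and in 8.69% of all. Counted by promoter, the share was 30% (9 of 30, from 29 genes) for members called higher and 40% (2 of 5) for those called lower. It was 28.6% (4 of 14, from 12 genes) for those not called. Smad2, which was not called, entered with both of its promoters. TATAAA, searched on both strands, was in 10.2% of member promoters, 8.04% of those on the array and 12.9% of all. A match is a description of the letters and not a binding site. The promoters of 3 antagonists that rose and of Inhbb, all with GGCGCC, are shown beside those of the member with the largest rise, Bmp3, and the largest fall, Ltbp4, which have none. Of the antagonists not shown, Fstl1, which rose, had no GGCGCC, and Chrd, which was not called, had 1. For Fst, which also rose, no promoter was found. The sequences are written 5′ to 3′ on the gene's strand, and capitals mark GGCGCC.
Bambi, chr17:58821004-58821253, minus strand: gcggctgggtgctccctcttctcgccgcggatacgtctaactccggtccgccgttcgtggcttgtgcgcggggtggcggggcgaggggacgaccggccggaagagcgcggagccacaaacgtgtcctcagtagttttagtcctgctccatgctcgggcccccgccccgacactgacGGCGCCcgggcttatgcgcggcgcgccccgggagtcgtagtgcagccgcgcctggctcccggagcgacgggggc
Grem1, chr3:120978320-120978569, minus strand: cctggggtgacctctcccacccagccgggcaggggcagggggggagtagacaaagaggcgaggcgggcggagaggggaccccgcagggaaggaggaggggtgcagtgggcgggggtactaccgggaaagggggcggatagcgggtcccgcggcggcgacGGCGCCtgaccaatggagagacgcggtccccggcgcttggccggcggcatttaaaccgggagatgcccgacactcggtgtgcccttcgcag
Nog, chr10:74627502-74627751, minus strand: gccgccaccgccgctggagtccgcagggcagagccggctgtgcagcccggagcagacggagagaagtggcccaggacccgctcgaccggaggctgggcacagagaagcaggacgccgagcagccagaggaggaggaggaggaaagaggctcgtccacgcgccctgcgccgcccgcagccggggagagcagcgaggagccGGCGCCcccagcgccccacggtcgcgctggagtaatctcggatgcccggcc
Inhbb, chr13:33089374-33089623, minus strand: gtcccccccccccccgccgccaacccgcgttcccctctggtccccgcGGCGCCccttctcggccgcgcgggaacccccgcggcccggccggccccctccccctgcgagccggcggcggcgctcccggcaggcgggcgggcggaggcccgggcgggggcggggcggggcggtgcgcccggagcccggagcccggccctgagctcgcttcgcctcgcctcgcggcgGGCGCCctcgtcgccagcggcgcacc
Bmp3, chr14:11041283-11041532, minus strand: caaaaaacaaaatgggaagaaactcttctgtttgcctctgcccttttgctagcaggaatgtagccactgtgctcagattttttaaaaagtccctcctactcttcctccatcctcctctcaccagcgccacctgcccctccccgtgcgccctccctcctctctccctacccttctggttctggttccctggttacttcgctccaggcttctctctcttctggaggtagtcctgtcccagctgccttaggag
Ltbp4, chr1:91759808-91760057, minus strand: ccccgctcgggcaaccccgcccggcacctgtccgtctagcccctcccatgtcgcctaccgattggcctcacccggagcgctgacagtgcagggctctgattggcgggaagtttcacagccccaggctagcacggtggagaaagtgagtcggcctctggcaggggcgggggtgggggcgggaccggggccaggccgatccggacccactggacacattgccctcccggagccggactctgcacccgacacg

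In these sequences GGCGCC began 74 bases before the start in Bambi, 91 in Grem1, 51 in Nog, and 203 and 26 in Inhbb. GC content was 72.4% in Bambi, 72% in Grem1 and 74% in Nog, against 53.6% in Bmp3 and 70.4% in Ltbp4. The promoter of Bmp3 held 4 CpG dinucleotides and that of Bambi 36. These genes rose by 2.98 and 2.90, and a relation between CpG count and rise was not tested.

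Smads and Smurfs gave 8 higher (80%), none lower and 2 not called of 10, with a median of 0.54. Of all genes 30.3% were higher and 28.6% lower. All 3 receptor Smads of the BMP branch rose. Smad9 had -0.88, -1.02 and -0.98 in sham and 0.16, -0.063 and 0.064 in OVX pools, a rise of 1.01 (SE 0.078, adjusted p = 1.3e-07). Smad1 had -0.77, -0.93 and -0.94 in sham and -0.011, 0.038 and 0.060 in OVX pools and rose by 0.91 (SE 0.063, adjusted p = 5.22e-08). Smad5 had -0.58, -0.84 and -0.83 in sham and 0.027, -0.00075 and 0.030 in OVX pools and rose by 0.77 (SE 0.077, adjusted p = 1.52e-06), in each of its 4 probe sets. The receptor Smads of the TGF-beta and activin branch did not pass the test. Smad2 had 0.044, -0.088 and -0.16 in sham and 0.0013, -0.013 and 0.0015 in OVX pools, 0.066 (SE 0.063, adjusted p = 0.399), with a 95% interval of -0.071 to 0.20. Smad3 had -0.11, -0.18 and 0.19 in sham and 0.032, -0.094 and -0.038 in OVX pools, 0.0013 (SE 0.095, adjusted p = 0.992), with an interval of -0.20 to 0.21. Its 2 probe sets lay at -0.27 and 0.27, and taking 1 probe set for each gene gave -0.27 (adjusted p = 0.0443). The intervals of Smad2 and Smad3 end below the lowest bound among Smad1, Smad5 and Smad9, which was 0.61, while the difference between the branches was not itself tested. Smad4, shared by both branches, rose by 0.34 (SE 0.074).

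The inhibitory Smad7, which blocks TGF-beta and BMP receptors, had -0.77, -0.82 and -0.79 in sham and 0.12, -0.041 and 0.018 in OVX pools and rose by 0.83 (SE 0.067, adjusted p = 2.04e-07). Smad6, the inhibitor of the BMP branch, rose by 0.41 (SE 0.060). The ubiquitin ligases Smurf2 and Smurf1, which mark Smads and receptors for degradation, rose by 0.67 (SE 0.086) and 0.39 (SE 0.079). No OVX pool of these 4 overlapped a sham pool. The 2 probe sets of Smurf1 differed, at 0.75 and 0.034, of which only the first passed. For Smad7, 2 of 3 probe sets passed, and for Smad6, 3 of 4.

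Of 5 genes that match the family's symbols without being ligands, receptors or Smads, 2 rose and 2 fell. That is 40% each way, against 30.3% and 28.6% of all genes. Bmp1, a metalloproteinase that cleaves procollagen and chordin, had -2.41, -2.71 and -2.66 in sham and 0.11, -0.033 and 0.017 in OVX pools. Its rise of 2.63 (SE 0.085, adjusted p = 7.41e-11), 6.17-fold, had the smallest adjusted p of all members. Tgfbrap1, a protein that associates with TGF-beta receptors, rose by 0.22 (SE 0.070, adjusted p = 0.0168). Tgfbi, a matrix protein induced by TGF-beta, had 0.19, 0.15 and -0.031 in sham and -0.13, -0.10 and -0.24 in OVX pools and changed by -0.26 (SE 0.083, adjusted p = 0.0149). Bmp2k, a kinase named for its induction by Bmp2, had 0.59, 0.26 and -0.0070 in sham and -0.33, 0.15 and -0.19 in OVX pools, a change of -0.41 (SE 0.15, adjusted p = 0.0328). Its pools overlapped, only 1 of its 2 probe sets passed, and the call ended without sham replicate 1 or 2 or OVX replicate 1 or 3. The call of Tgfbi ended without sham replicate 1 or OVX replicate 3. Tgfb1i1, a focal adhesion protein, gave -0.0055 (SE 0.085) and did not pass.

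Probe sets of one member did not always agree. Of the 23 members with several, 13 had every probe set higher, 8 had some called, 2 had none called and 0 had probe sets called in opposite directions. Counted singly, 57 of 87 probe sets of members were higher and 5 lower, against 25.9% and 23.9% of all probe sets. The largest gaps were in Tgfbr1 (0.43 and 1.89), Gdf11 (0.21 and 1.66), Smad7 (0.19 to 1.42), Bmpr2 (-0.24 and 0.91) and Smad6 (0.036 to 1.08), where the size of the mean depends on which probe set is read. The median gap was 0.54. The 2 probe sets of Smad3, at -0.27 and 0.27, had opposite signs and narrowly missed the threshold (limma adjusted p = 0.0506 and 0.0547).

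**Figure D3:**
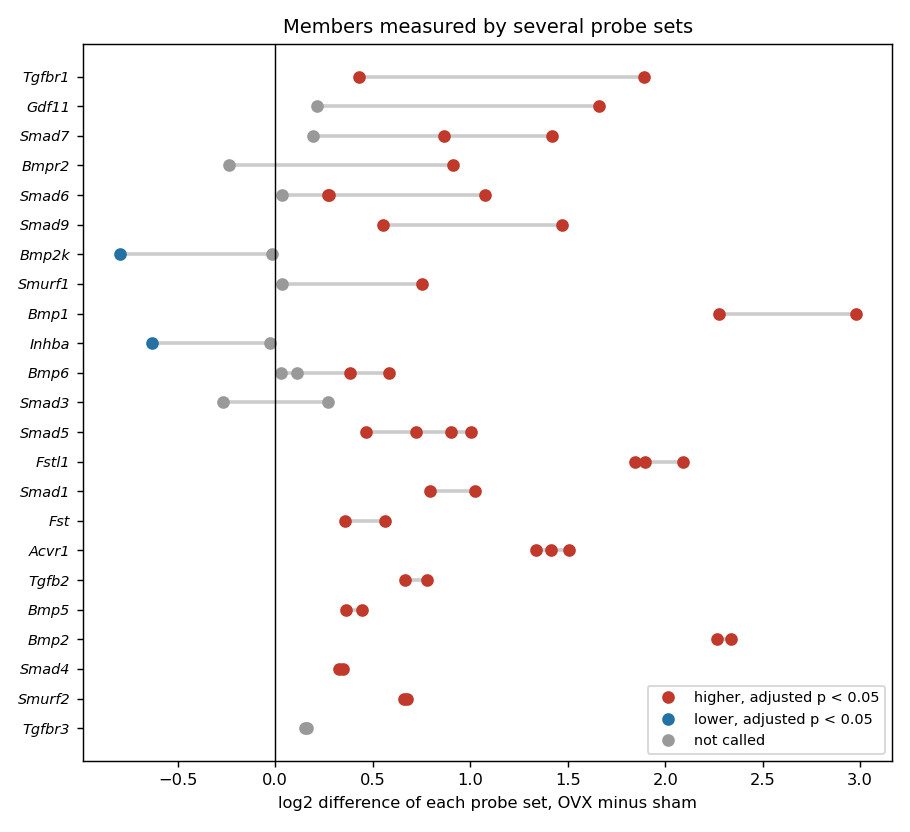
Log2 difference between OVX and sham bone (horizontal axis) of each probe set of the 23 members with more than one, ordered by the gap between the lowest and the highest. Points are single probe sets (red called higher, blue called lower, grey not called, n = 3 pools per group). No member has both a red and a blue point.

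Quantile normalization gives every array the same spread of values, although the sham arrays had the wider one. This setting therefore reduces differences from sham in part by construction, and it cannot decide which lost calls are sound. It ended 20 of the 41 calls and lowered the fold of 16 called members by over 1.5 times. For Bmp3, Bambi, Bmp1, Bmp8a and Bmp2 the fold became 2.08, 2.17, 2.06, 2.01 and 2.004, and for Bmp4, Tgfb3, Fstl1, Ltbp3, Grem1, Inhbb, Acvr1, Ltbp2, Gdf10, Ltbp4 and Tgfbr1 it lay between 1.32 and 1.88. The calls that ended were those of Acvr1, Acvr2a, Acvr2b, Bmp2k, Bmp3, Bmp5, Bmp6, Bmpr2, Gdf10, Gdf11, Inha, Inhba, Ltbp1, Nog, Smad4, Smurf1, Smurf2, Tgfb2, Tgfbi and Tgfbrap1, which left 20 members higher and 1 lower (Ltbp4). There 10.8% of all genes were called higher and 10.4% lower. Besides the genes already given, the calls of Acvr2a and Bmp5 ended without sham replicate 2 or OVX replicate 2, and that of Tgfbrap1 without OVX replicate 2. The mean over the 55 members was -0.75 to -0.66 in the sham pools and 0.0029 to 0.028 in the OVX pools. It was -0.010 to 0.063 after the long diet and 0.020 to 0.055 after the short diet. This mean thus set the sham pools apart from all others. It did not separate the OVX pools from those of the short diet, as the mean over the muscle markers did.

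Other genes of the pathway were taken from a list of 52, of which 42 were measured. In OVX against sham bone 21 (50%) were higher and 10 (23.8%) were lower, against 30.3% and 28.6% of all genes. The share called lower was thus near that of all genes. A further 11 were not called, and the median was 0.27. The lists that follow are to be read beside the same shares of all genes, and each holds few genes. Target genes of the signal were the most one-sided, with 9 of 13 higher and none lower. Id3, an inhibitor of differentiation induced by BMPs, rose by 3.21 (SE 0.094, adjusted p = 3.82e-11), and Hey1, a BMP- and Notch-induced repressor, by 3.06 (SE 0.080, adjusted p = 2.03e-11). Dlx5, an osteoblast transcription factor, rose by 2.36 (SE 0.087, adjusted p = 1.96e-10). Id1, a classic BMP target, rose by 0.75 (SE 0.078), while Id2, Id4, Msx2 and Ccn1 did not pass the test. Among genes that process or activate the ligands 2 of 5 rose and 3 fell. Itgav, the integrin subunit that activates latent TGF-beta, rose by 2.55 (SE 0.10, adjusted p = 2.86e-10). Its partner Itgb6 changed by -2.80 (SE 0.23, adjusted p = 2.11e-07), and Lrrc32, which holds latent TGF-beta on cell surfaces, by -1.61 (SE 0.13, adjusted p = 2.91e-07).

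Of 9 further secreted inhibitors 4 were higher and 1 was lower, Chrdl2, a chordin relative, with -1.44 (SE 0.18, adjusted p = 1.19e-05). Intracellular regulators had 5 higher (55.6%) and 2 lower (22.2%) of 9, against 30.3% and 28.6% of all genes. Of 6 other ligands and co-receptors 1 was higher and 4 were lower. The largest fall was that of Hjv, a BMP co-receptor expressed in skeletal muscle and liver, with -5.93 (SE 0.61, adjusted p = 2.16e-06). Its mean was 3.91 in sham and -2.02 in OVX bone, -1.32 with the long BB diet and 0.034 with the short one, the order of the muscle markers, whose part in it was not tested.

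The second question was whether either blueberry diet changed these genes in ovariectomized rats. In the limma fit 0 members, and 0% of all genes, were called when LTBB OVX was set against OVX. The counts were also 0 members and 0% of genes for STBB OVX set against OVX, and 0 members and 0% for the pair of BB diets. These comparisons follow in that order. At an unadjusted p under 0.05 there were 1, 3 and 2 members, against 2.31%, 2.89% and 3.4% of all genes. Pools did not overlap in 6, 7 and 6 members (10.9%, 12.7% and 10.9%), against 8.7%, 9.38% and 10.9% of all genes. The median difference of the members was 0.026, 0.013 and 0.00056. A miss of the threshold does not show that the groups were alike, and the 95% intervals set what these arrays allow: over all members they ran from -0.50 to 0.68 for LTBB OVX against OVX, from -0.47 to 0.53 for STBB OVX against OVX, and from -0.70 to 0.67 for STBB OVX against LTBB OVX. The 3 comparisons share arrays. Beside these values, the muscle markers had a median difference of 0.92 for LTBB OVX against OVX and 3.07 for STBB OVX against OVX, with none of 8 called. For the short diet 7 of these 8 markers had an unadjusted p under 0.05 and 7 had pools that did not overlap, and for the long diet 0 and 0. Of the 8 chondrocyte markers 4 passed that unadjusted level with the short diet against OVX (median difference 0.26) and 4 with the short against the long diet (median 0.39). The part of these markers in the diet differences was not tested.

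Follistatin stood at the top of the members in both comparisons that involve the long diet. Fst had 0.13, 0.26 and 0.19 in OVX pools, -0.068, -0.18 and -0.16 with the long BB diet and 0.18, 0.21 and 0.33 with the short one. All LTBB OVX pools lay below all OVX and all STBB OVX pools. The difference between LTBB OVX and OVX was -0.33 (SE 0.072, 95% interval -0.49 to -0.17, adjusted p = 1). Between STBB OVX and LTBB OVX it was 0.38 (95% interval 0.22 to 0.53, adjusted p = 0.917), and its adjusted p ranged from 0.0558 to 1 over the alternatives. Both probe sets had the same sign, at -0.40 and -0.26 between LTBB OVX and OVX. Each of these differences of Fst had an unadjusted p under 0.05, and none passed the test over all genes.

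The other members with the largest differences between LTBB OVX and OVX were Bmp3 (0.23, SE 0.21), Ltbp1 (0.19, SE 0.16) and Ltbp4 (-0.19, SE 0.11), each with overlapping pools. Between STBB OVX and OVX they were Bmp15 (0.28, SE 0.11), Tgfbi (0.23, SE 0.083), Gdf15 (-0.18, SE 0.093) and Inhbc (-0.18, SE 0.081). Bmp15 had -0.016, -0.20 and 0.016 in OVX and 0.22, 0.22 and 0.22 in STBB OVX pools. The 3 values in STBB OVX were nearly equal. Tgfbi had -0.13, -0.10 and -0.24 in OVX and -0.086, 0.17 and 0.12 in STBB OVX pools, and Gdf15 had 0.21, 0.042 and 0.077 in OVX and -0.16, -0.083 and 0.019 in STBB OVX pools. Inhbc had 0.14, 0.0073 and 0.055 in OVX and -0.093, -0.18 and -0.077 in STBB OVX pools. The pools of these 4 genes did not overlap, and none of the differences was called. Between STBB OVX and LTBB OVX, Nog differed by 0.34 (SE 0.15), Bmp3 by -0.25 (SE 0.21) and Ltbp4 by 0.24 (SE 0.11). The pools of Nog, -0.12, 0.16 and -0.17 in LTBB OVX and 0.59, 0.27 and 0.022 in STBB OVX, overlapped, those of Bmp3 overlapped as well, and those of Ltbp4, -0.24, -0.18 and -0.24 in LTBB OVX and -0.037, -0.0023 and 0.10 in STBB OVX, did not.

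**Figure D4:**
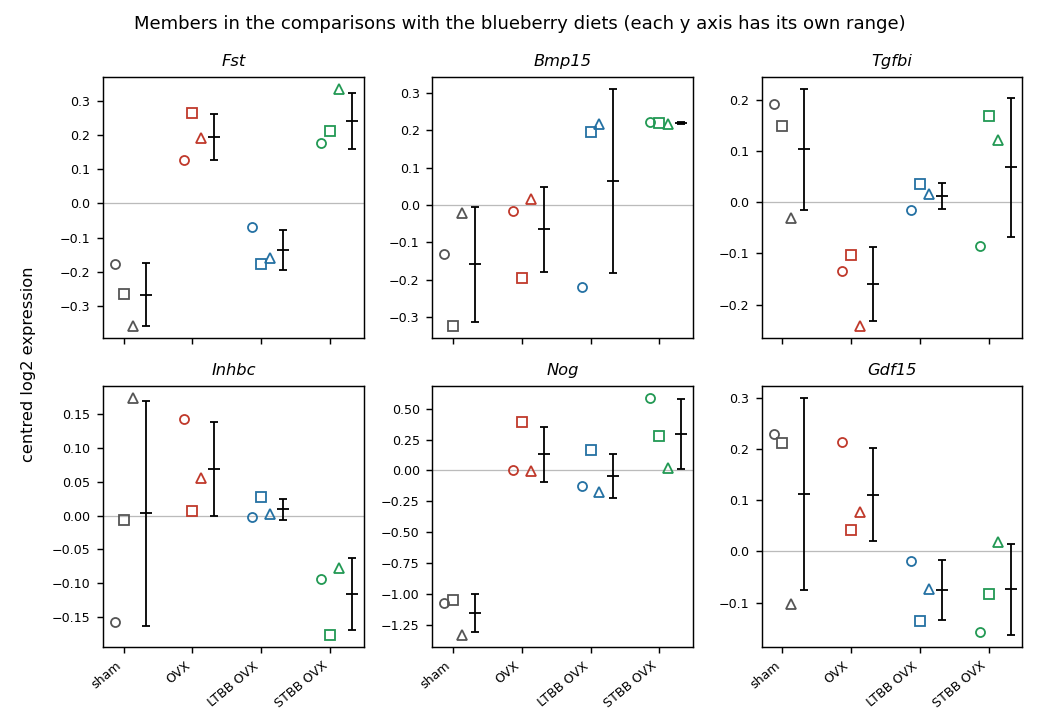
Centred log2 expression (vertical axes, each with its own range) of Fst, Bmp15, Tgfbi, Inhbc, Nog and Gdf15 in every pool of the 4 groups. Circles, squares and triangles are pools 1, 2 and 3, and the black bars show the mean and SD of the 3 pools. The 3 LTBB OVX pools of Fst (-0.068, -0.18 and -0.16) lie below the OVX and the STBB OVX pools.

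Set against sham bone, which all 3 ovariectomized groups share as the control, LTBB OVX had 36 members higher and 3 lower, against 29.2% and 29.1% of all genes. STBB OVX had 37 higher and 2 lower, against 29.3% and 29% of all genes. Side by side, the differences from sham, given in the order OVX, long diet, short diet, were 2.90, 3.01 and 2.97 for Bambi. They were 2.30, 2.20 and 2.25 for Bmp2, and -1.37, -1.56 and -1.32 for Ltbp4. For Fst they were 0.46, 0.13 and 0.51, and the middle value was not called (adjusted p = 0.139).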

How the data were processed

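RNA of pooled rat bone was hybridised to Affymetrix rat genome arrays. The deposited table holds log2 values that the authors made by robust multiarray analysis, a floor for low values, and normalization per chip and per gene in GeneSpring; for GCOS and RMA, named in the processing notes, no version is given. Here each probe set had a median of 0 over the 12 arrays and levels of different genes cannot be compared.

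Without the 57 control probes, 20826 probe sets had 1 platform gene symbol, 436 had several (among them 2 for Gdf1 and Cers1, not used) and 9780 had none. Symbols were updated through the GRCr8 gene table for 20758. Probe sets of a gene were averaged, and no filter on low values was applied. Groups were compared in 1 model over all arrays with limma 3.58.1 in R 4.3.3 (lmFit, eBayes; 8 residual degrees of freedom) and Benjamini-Hochberg adjustment over all 14217 genes; scripts were tested on simulated data. Bmp8b, Bmp10, Gdf1, Gdf2, Gdf3, Gdf5, Gdf7, Bmpr1b, Acvr1b, Tgfbr2 and Tgfbr3l were not analysed here.

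The members and lists were chosen with earlier results of these data known. Named were, for each role, up to 4 called members with the largest difference between OVX and sham, every member called lower or not called, the 4 members with the largest difference in each diet comparison, and the 4 largest rises and falls among other pathway genes; further genes were named after their values were seen. Alternatives were other normalizations, other ways to combine probe sets, a filter on the range, other variance models, other thresholds, a block for the pool number and leaving out each array.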

Additional observations from a re-analysis of the deposited data

How the results depend on the processing

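Between OVX and sham, 21 of the 41 called members were called under all 22 alternatives computed per gene, and 20 lost the call in at least 1, 13 of them only after quantile normalization. That normalization gave 20 members higher and 1 lower, a median of 0.31, and turned Bmpr2 to -0.031. It called 21.2% of all genes in place of 58.9%. It gives every array the same spread of values, and the sham arrays had the wider spread before it. Smaller differences from sham are therefore partly built into this setting, and it cannot decide which of the lost calls are sound. Leaving out the genes with the smallest range over the arrays, which removed 7 uncalled members, gave a median of 0.70. That range included the sham arrays, so the filter tends to keep genes that differ from sham. Its higher median is no independent check. One probe set per gene turned Smad3 to -0.27 and ended the calls of Bmp6 and Inhba. The number called lower was 3 with unmoderated variance, 2 when a 1.5-fold change was also required and 2 at an adjusted p under 0.01, and 2 to 5 when 1 array was left out (2 without sham replicate 1 or OVX replicate 3). The number called higher was then 33 to 36. Gdf9 was called without OVX replicate 1.

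No member was called between diets under any of the 24 alternatives. The median for LTBB OVX against OVX was 0.072 after quantile normalization and -0.0075 to 0.038 with 1 array left out, lowest without LTBB OVX replicate 2. For STBB OVX against OVX it was 0.057 after quantile normalization, 0.038 with 1 probe set per gene, and 0.0033 to 0.049 with 1 array left out, the highest 2 being 0.030 without OVX replicate 1 and 0.049 without STBB OVX replicate 2.

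Pools share replicate numbers, and the correlations of the deviations of same-numbered pools ran from -0.38 to 0.23, with 6 of 18 over 0.1. Among sham, LTBB OVX and STBB OVX every such correlation was positive, from 0.047 to 0.23. With an OVX pool they were negative but for 1 of 0.013. With the pool number as a replicate block 36 members were higher and 5 lower, 0 were called between diets, and 8196 genes were called in place of 8367. It changed no call of a member. With 3 pools per group, small differences between diets were not detectable.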
